A study of Mus musculus with 9 samples.

Results

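The genes described here carry out the entry of long-chain fatty acids into mitochondria and their oxidation: *Cpt1a*, *Cpt2*, *Acadvl*, *Acadl*, *Acadm*, *Hadha*, *Hadhb* and *Pdk4*. They were chosen by name, as every array probe whose gene symbol equals that of a member, which gave 9 probes for 8 genes out of 33012 probes and 15674 genes. *Hadhb* was measured by 2 probes and each of the other 7 genes by 1. *Hadhb* holds a special place because the study listed it as a candidate reference gene for jejunal expression. These same arrays contributed to that ranking, so its uniformity on them is not independent evidence. In the study's RT-qPCR *Hadhb* varied more than 2-fold, also among mice of the same stock as here, with an outlier of low expression. It was not among the genes that the study named as the most uniform. None of the members makes ketone bodies, and ketogenesis is covered by a list of its genes. The question addressed was how evenly *Hadhb* was expressed over the mice compared with the other enzymes of its pathway, and whether any of them differed between feeds.

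Expression was measured on 9 single-colour Applied Biosystems arrays, which are read by chemiluminescence. Each held jejunal RNA from a single male at 7 weeks of age, of the outbred stock OF1. There were 3 mice on each of 3 diets named feed B, feed K and feed G, which had been given over 3 generations. Mice 7, 8 and 10 received feed B, mice 1, 3 and 4 feed K, and mice 4, 8 and 11 feed G, so the numbers name mice within a feed only. The letters are not explained in the sources used here, and no feed was taken as the control. No mutation and no agent is labelled in any group. The labels place the mice in the third generation on these feeds, whereas the methods describe purchased mice, and littermates are not identified, so p-values measure the spread between these mice. The stated methods withheld food for a short time before sampling, and the time of day of sampling was not randomised. In a whole-wall sample, fewer cells of a type and less RNA per cell cannot be told apart.

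Fatty acids are activated to acyl-CoA, and *Cpt1a* encodes the outer-membrane carnitine palmitoyltransferase that controls their entry into mitochondria. *Cpt2* encodes the inner-membrane enzyme that turns acylcarnitine back into acyl-CoA. Each turn of beta oxidation then starts with an acyl-CoA dehydrogenase for very long (*Acadvl*), long (*Acadl*) or medium chains (*Acadm*), and the mitochondrial trifunctional protein, made of the alpha subunit *Hadha* and the beta subunit *Hadhb*, carries out the remaining steps for long chains. *Pdk4* encodes a kinase that inhibits pyruvate dehydrogenase and so spares glucose when fat is oxidised. Acetyl-CoA from oxidation can be made into ketone bodies, and the nuclear receptors of the PPAR family, which sense fatty acids, are known to induce many of these genes.

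*Hadha* and *Hadhb* lie head to head on mouse chromosome 5. In the RefSeq annotation of GRCm38.p6 *Hadha* starts at position 30154980 on the minus strand and *Hadhb* at position 30155253 on the plus strand, a distance of 273 bases. The stretch between the starts, chr5:30154981-30155252, is shown on the plus strand because it is the common upstream region of both subunits, whose spreads are compared below. It runs from the start of *Hadha* to the start of *Hadhb*, and capitals mark the GC box (GGGCGG, either strand).
*Hadha* to *Hadhb*: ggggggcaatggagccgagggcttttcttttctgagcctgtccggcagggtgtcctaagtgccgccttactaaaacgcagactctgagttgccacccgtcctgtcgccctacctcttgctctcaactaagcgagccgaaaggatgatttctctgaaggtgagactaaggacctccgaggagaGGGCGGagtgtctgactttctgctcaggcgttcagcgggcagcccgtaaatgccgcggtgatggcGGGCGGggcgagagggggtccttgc
The stretch is 272 bases long with 60.3% G and C, and holds 2 GC boxes, no CCAAT and no AGGTCA on either strand.

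All 8 members were found among 27025 RefSeq upstream windows of 250 bases. A GC box was present in the windows of 5 of the 8, compared with 32.9% of all windows, and *Hadha* and *Hadhb* share a match because their windows overlap. The CCAAT box was present in *Cpt1a* and *Pdk4* (2 of 8, compared with 34.5% of all windows). The motif AGGTCA, which nuclear receptors can bind, was present in *Cpt1a*, *Acadm* and *Acadvl* (3 of 8, compared with 13.8%). The longer form TNAAGGTCA, which overlaps that motif and occurs in 1.14% of all windows, had no match in a member. These are matches of letters and not binding sites.

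Spots were taken as detected from a signal-to-noise ratio of 3 upwards. By that limit 33.7% to 48.1% of probes were detected per array, and 5887 genes on all 9 arrays. Of the members, 7 were detected on all 9 arrays and *Acadm* on 5. None (0) of the 81 member spots carried a failed flag. The 5 enterocyte markers with a probe, of 10 listed, were detected on every array. On feed B the log2 of their summed signal was 20.90 to 21.71. It was 21.36 to 21.61 on feed K and 21.23 to 21.73 on feed G. The arrays differed in markers of position along the gut, such as 5 distal markers led by *Fabp6*. On feed B the log2 of their summed signal was 11.65 to 17.90. It was 11.82 to 13.22 on feed K and 11.67 to 19.53 on feed G. A list of 12 clock genes follows the time of day. On feed B the log2 of its summed signal was 13.07 to 13.83. It was 13.96 to 14.54 on feed K and 14.17 to 14.79 on feed G, a difference that was not tested. Such a sum weights bright genes, and the genes of this list went both ways. The mean of *Dbp* was 11.00, 13.13 and 13.39 on feeds B, K and G, whereas that of *Arntl* was 9.77, 9.01 and 7.66. Means of *Tef*, *Hlf*, *Nr1d2* and *Per2* were also lowest on feed B, and those of *Nfil3*, *Npas2* and *Clock* highest. Signals below are quantile normalized over the arrays and given as log2 values, which are comparable between mice for a gene but not between genes.

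The beta subunit *Hadhb* was among the more uniform genes of the jejunum. Its log2 signal was 12.48, 12.82 and 12.47 in mice 7, 8 and 10 of feed B. It was 12.89, 12.71 and 12.66 in mice 1, 3 and 4 of feed K. It was 12.44, 12.62 and 12.67 in mice 4, 8 and 11 of feed G. The feeds overlapped, with the highest value in feed K mouse 1 and the lowest in feed G mouse 4. The SD over the 9 mice was 0.16, and the highest signal was 1.37-fold the lowest. A smaller SD was found for 9.85% of the 5887 genes detected on all arrays, and for 19.0% of the 748 such genes within 0.5 log2 units of its mean. With a mouse left out the first share was 5.47% (without feed K mouse 1) to 14.4% (without feed G mouse 11). With the brightest probe of each gene it was 16.7%. The study preselected genes by low CV%, after setting each array to zero mean and unit variance. By that measure, over these 9 arrays, 6.23% of genes detected on all arrays were below *Hadhb* (CV 3.32%). *Acadvl* was lower (2.76%, with 3.45% of genes below it), so *Hadhb* was not the most uniform member by CV%. The other members were higher, from 5.13% for *Cpt2*.

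The alpha subunit *Hadha*, the partner of *Hadhb* in the same protein complex, varied more. Its log2 signal was 10.35, 11.41 and 11.60 in mice 7, 8 and 10 of feed B. It was 11.92, 11.68 and 11.46 in mice 1, 3 and 4 of feed K. It was 10.95, 10.74 and 11.78 in mice 4, 8 and 11 of feed G. Feed B mouse 7 was lowest, feed K mouse 1 was highest, and the feeds overlapped. The SD was 0.53 and the range 2.96-fold, and 86.2% of genes detected on all arrays had a smaller SD. The SD of *Hadha* was larger than that of *Hadhb* in the same mice (paired test of equal variances, two-sided exact permutation over 362880 pairings, p = 0.00164, adjusted p = 0.0191 over 5886 genes). This call was lost with median scaling (exact permutation, adjusted p = 0.154), the authors' series table (0.247) and the brightest probe (0.0741), and, as given below, with either *Hadhb* probe alone and without some single mice. The study listed *Hadhb* for low variation partly from these arrays. This and the other paired tests against *Hadhb* are therefore not independent of its choice.

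**Figure D1:**
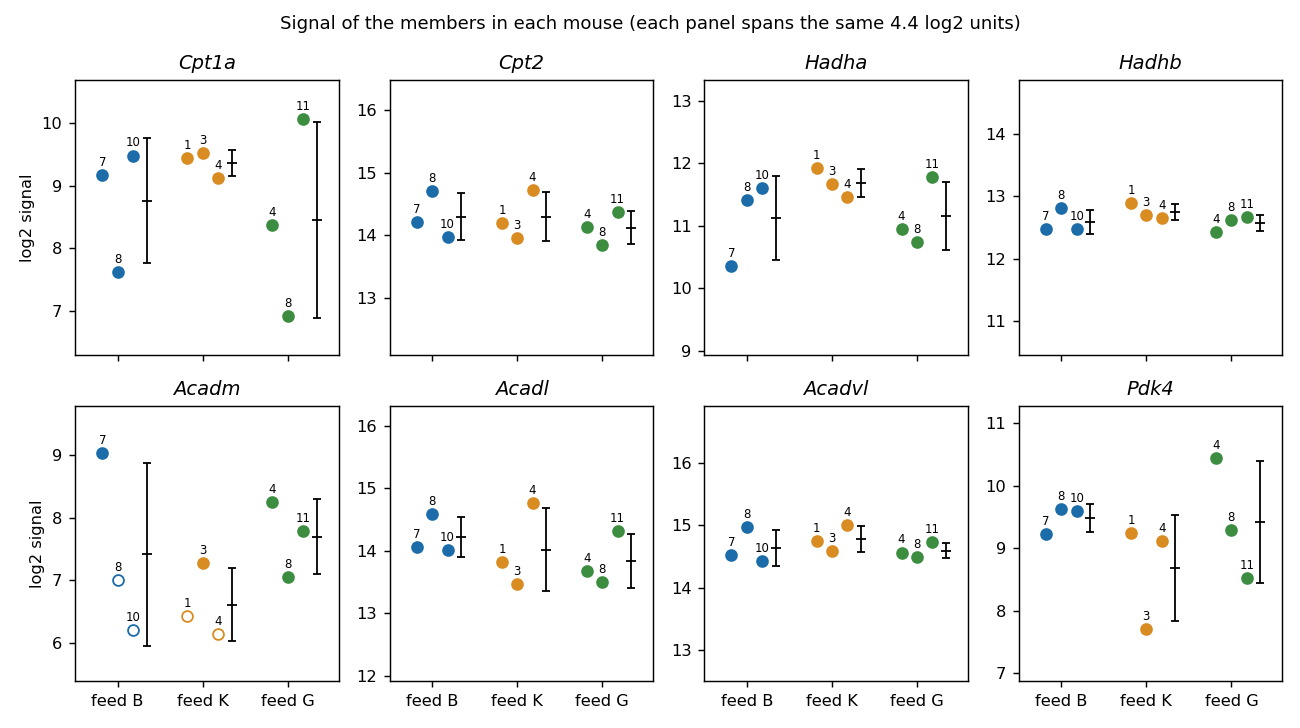
Log2 signal (vertical axis) of each member in each mouse, grouped by feed on the horizontal axis. Numbers are mouse numbers, open circles mark arrays on which the gene was not detected, and black bars give the mean and SD of 3 mice. *Hadhb* spans 1.37-fold and *Cpt1a* 8.81-fold over the same 9 mice, and no member separates a feed from both others.

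The carnitine palmitoyltransferases had different SDs, a difference that was not tested. *Cpt1a* had a log2 signal of 9.17, 7.62 and 9.48 in mice 7, 8 and 10 of feed B, of 9.44, 9.52 and 9.12 in mice 1, 3 and 4 of feed K, and of 8.36, 6.92 and 10.06 in mice 4, 8 and 11 of feed G. It was lowest in mouse 8 of feed G and mouse 8 of feed B, where its signal-to-noise ratios of 3.36 and 3.40 lay just above the detection limit. The mice of feed K lay close together and inside the range of the other feeds. The SD of *Cpt1a* was 1.02 and its range 8.81-fold, the widest of the 7 members detected on all arrays, and 98.05% of genes detected on all arrays had a smaller SD. *Cpt2* had a range of 1.84-fold (SD 0.32), with its highest log2 signals, 14.71 and 14.73, in feed B mouse 8 and feed K mouse 4 and its lowest, 13.84, in feed G mouse 8. For *Cpt2* 55.3% of genes detected on all arrays had a smaller SD, and 73.3% of the 258 such genes within 0.5 log2 units of its mean did. For *Cpt1a* the latter share was 98.6% of 643 genes.

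Among the 3 acyl-CoA dehydrogenases that are members, *Acadvl* for very long chains had the smallest SD. It was lowest in feed B mouse 10, with a log2 signal of 14.42, and highest in feed K mouse 4, with a range of 1.49-fold (SD 0.20). *Acadl* for long chains ran from 13.47 in feed K mouse 3 to 14.76 in feed K mouse 4, so that a single feed held both its extremes, and its range was 2.44-fold (SD 0.46). The medium-chain gene *Acadm* was detected on 1 array of feed B (mouse 7, 9.04), 1 of feed K (mouse 3, 7.27) and all 3 of feed G (8.26, 7.06 and 7.79 in mice 4, 8 and 11). On the other 4 arrays its signal-to-noise ratio was -0.20 to 2.91. It was 2.91 in feed B mouse 8, just below the detection limit. On the rest it was 0.27 or less, where the deposited signal holds the noise of the spot or little more. Its SD of 0.97 therefore includes noise.

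*Pdk4*, the kinase that restrains pyruvate use, had a log2 signal of 9.22, 9.62 and 9.60 in mice 7, 8 and 10 of feed B. It was 9.24, 7.71 and 9.11 in mice 1, 3 and 4 of feed K and 10.45, 9.29 and 8.52 in mice 4, 8 and 11 of feed G. Feed K mouse 3 was lowest and feed G mouse 4 highest. Its SD was 0.76 and its range 6.67-fold, and 95.4% of genes detected on all arrays had a smaller SD.

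**Figure D2:**
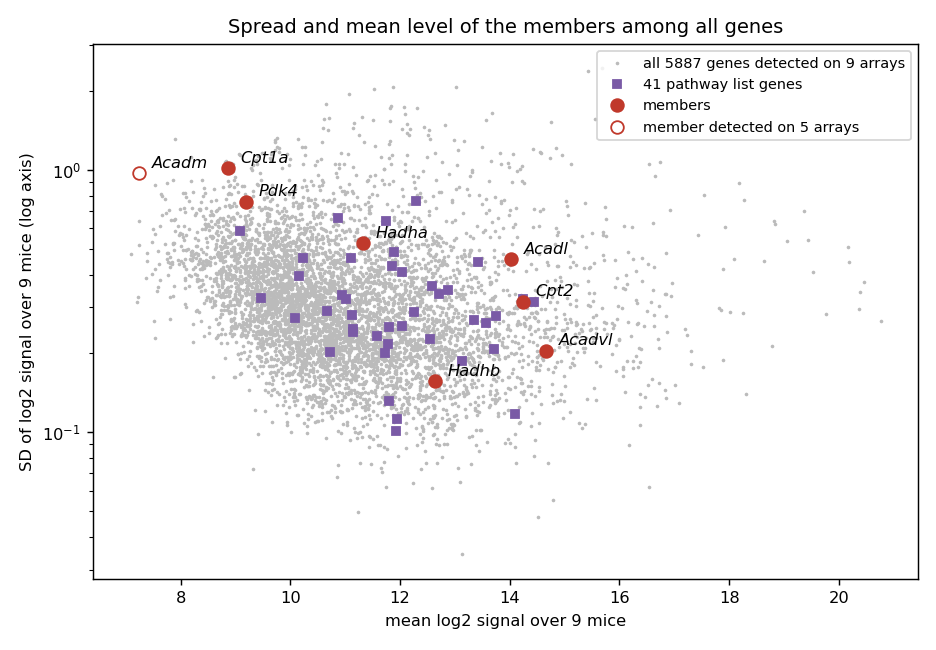
SD of log2 signal over 9 mice (vertical, log axis) against mean log2 signal (horizontal). Grey points are the 5887 genes detected on all arrays, violet squares the 41 such genes of the pathway lists, and red circles the members. *Hadhb* (SD 0.16) and *Acadvl* (0.20) lie in the lower part of the cloud, and *Cpt1a* (1.02) and *Pdk4* (0.76) in its upper part.

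The range over the mice was at most 2-fold for 3 of the 7 members detected on all arrays (*Hadhb*, *Acadvl* and *Cpt2*), compared with 57.9% of the 5887 genes. The median SD of the 7 was 0.46, compared with 0.29 over all these genes. In the paired test against *Hadhb*, 3 of 6 members were more variable after adjustment over all genes, compared with 22.3% of the 5886 genes tested. Besides *Hadha* these were *Cpt1a* (exact permutation, p = 0.000185, adjusted p = 0.00854) and *Pdk4* (exact permutation, p = 0.00104, adjusted p = 0.0155). *Acadl* missed the threshold (exact permutation, adjusted p = 0.0523), as did *Cpt2* (adjusted p = 0.154) and *Acadvl* (adjusted p = 0.509), which does not show that these vary as little as *Hadhb*. Only the call for *Cpt1a* held with each mouse left out in turn. *Hadha* lost its call without feed B mouse 7 (exact permutation, adjusted p = 0.0868), feed G mouse 8 (0.0663) or feed G mouse 11 (0.0575), *Pdk4* without feed K mouse 3 (0.0737) or feed G mouse 11 (0.0694), and *Acadl* gained one without feed K mouse 1 (0.0254).

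The value of *Hadhb* is an average over its 2 probes, each of which varied more. Its probes, 306111 and 753383, were each detected on all arrays, with signal-to-noise ratios of 16.0 to 47.5 and 37.7 to 99.1. Probe 306111 gave 12.06, 12.51 and 12.41 on feed B, 12.81, 12.62 and 12.28 on feed K and 12.20, 12.44 and 12.51 on feed G, in the order of mice used above. Probe 753383 gave 12.90, 13.12 and 12.54 on feed B, 12.97, 12.79 and 13.04 on feed K and 12.67, 12.80 and 12.83 on feed G. The profiles of the probes over the 9 mice were not shown to be related (Pearson r = 0.17, exact permutation p = 0.656, Spearman rho = 0.15, p = 0.708). Feed K mouse 4, for example, was among the lowest for the first and the second highest for the other.

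Taken alone, probe 306111 of *Hadhb* had a range of 1.69-fold (SD 0.23) and probe 753383 one of 1.49-fold (SD 0.18). Among the 8772 probes detected on all arrays 31.6% and 16.6% had a smaller SD. The spread of a single *Hadhb* probe was thus close to that of *Acadvl*, whose only probe had an SD of 0.20 and 24.4% of probes below it. With probe 306111 as the reference 1.61% of genes and 1 member, *Cpt1a* (exact permutation, p = 0.000829, just past the threshold after adjustment), were more variable than *Hadhb*, and with probe 753383 13.6% of genes and 2 members, *Cpt1a* (adjusted p = 0.0135) and *Pdk4* (adjusted p = 0.0330). *Hadha* was called with neither (adjusted p = 0.0918 and 0.0673). The use of single probes was chosen after the values were seen.

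The uniformity of *Hadhb* also depended on the scaling of the arrays. When arrays were instead scaled to a common median, its SD was 0.39 and its range 2.14-fold, and in the authors' series table, without further normalization, 0.34 and 1.89-fold. The median SD of all genes rose too, from 0.29 to 0.44 and 0.39, but 37.5% and 38.4% of genes then had a smaller SD than *Hadhb*. The smallest SD of a member was then not that of *Hadhb*: with median scaling *Cpt2* had 0.27 and *Acadvl* 0.30, and with the series table both had 0.27. None (0) of the 6 members was more variable than *Hadhb* with either (exact permutation, Benjamini-Hochberg adjustment), and 2 had an unadjusted p below 0.05 with each. Of all genes 0 passed with median scaling and 11 with the series table, and 797 and 686 had an unadjusted p below 0.05.

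**Figure D3:**
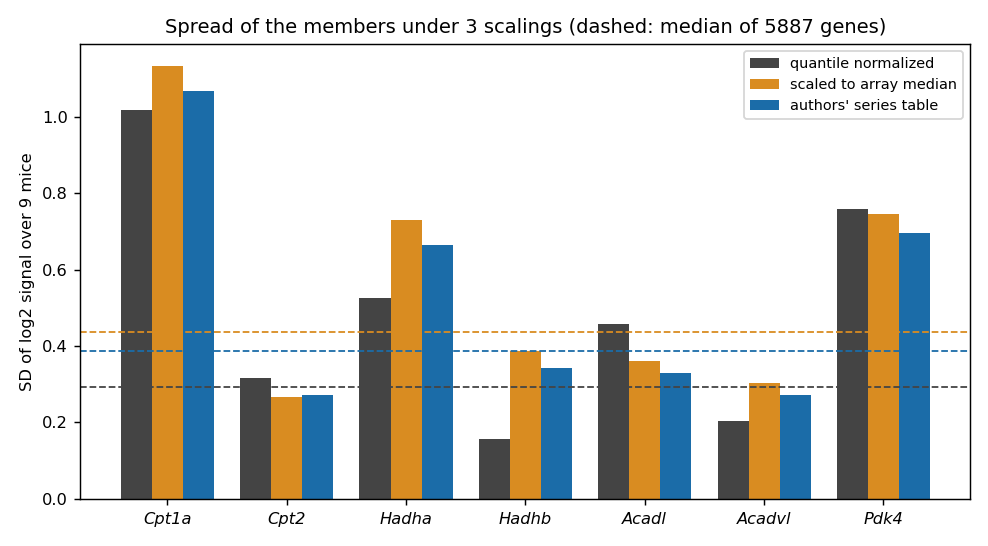
SD of log2 signal over 9 mice (bars, vertical axis) of the 7 members detected on all arrays, with quantile normalized signals, signals scaled to the array median, and the authors' series table. Dashed lines give the median SD of 5887 genes in the same colours. *Hadhb* rises from 0.16 to 0.39 and 0.34, while *Cpt2* falls from 0.32 to 0.27 with both other scalings.

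No effect of the feed on a member was found. With limma's F test across the feeds 0 of 8 members passed after Benjamini-Hochberg adjustment over 9652 genes (limma, adjusted p from 0.903 to 0.960), and 0% of all genes did. At an unadjusted p below 0.05 the count was 0 of 8, compared with 5.37% of all genes. An exact permutation of the same statistic, whose smallest p is 0.00357, gave 0.361 to 0.768 for the members. No member (0 of 8) had a feed wholly above or below both other feeds, compared with 8.11% of genes with a value on all arrays. For the single pairs of feeds limma also called 0% of genes after adjustment, and at an unadjusted p below 0.05 it called 609 genes between feeds B and K, 554 between B and G and 438 between K and G, with 0 members in each.

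The mean log2 signal of *Hadhb* was 12.59 ± 0.20 on feed B, 12.75 ± 0.12 on feed K and 12.57 ± 0.12 on feed G (SD, n = 3 each). Feed K minus feed B was 0.16 with a standard error of 0.18 (limma, adjusted p = 0.925). *Pdk4* was 9.48 ± 0.22, 8.69 ± 0.85 and 9.42 ± 0.97 (SD, n = 3 each), and *Cpt1a* was 8.76 ± 1.00, 9.36 ± 0.21 and 8.45 ± 1.57 (SD, n = 3 each) on feeds B, K and G. The standard error of a difference between feeds was 0.55 for *Pdk4* and 0.77 for *Cpt1a*. The largest member difference was that of *Acadm*, 1.09 from feed K to feed G (standard error 0.69), and *Acadm* was detected on 1 array of feed K.

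The direction of small differences depended on the scaling. Median scaling moved the median of all genes from 0.05 to 0.41 (feed K minus B), from 0.06 to 0.53 (G minus B) and from -0.01 to 0.11 (G minus K). It turned the sign of 7 of the 24 differences between feeds for the 8 members, and 3 of 24 when each was taken relative to the median gene. *Acadl* on feed G minus feed B was -0.38 with quantile normalization and 0.15 with median scaling, but -0.45 and -0.38 relative to the median gene. No member passed with any scaling (limma, adjusted p from 0.422 to 0.960).

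The members fell into partly separate patterns over the mice. *Cpt2*, *Acadvl* and *Acadl* had similar profiles, each with its highest values in feed K mouse 4 and feed B mouse 8. The Pearson r of *Cpt2* was 0.93 with *Acadvl* (exact permutation p = 0.00104, Spearman rho = 0.77, p = 0.0214) and 0.92 with *Acadl* (exact permutation p = 0.000639, Spearman rho = 0.93, p = 0.000750), and that of *Acadl* with *Acadvl* was 0.78 (exact permutation p = 0.0157, Spearman rho = 0.57, p = 0.121). Without these 2 mice, the farthest from the median of the first gene of each pair, r was 0.71, 0.77 and 0.27 (exact permutation p = 0.0798, 0.0466 and 0.536). The r of *Acadl* with *Acadvl* thus depended on these mice. That of *Cpt2* with *Acadvl* fell less but did not pass 0.05 in the fewer mice left, which does not show that the relation is absent. None of the 28 pairs of members passed after adjustment over the 9555 genes set against each member (adjusted p of 0.169, 0.319 and 0.220 for these pairs). With the feed means subtracted the r values were 0.97, 0.93 and 0.87.

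Some markers of other cell types had profiles opposite to that of *Cpt2*. T cell markers had their lowest summed signal in the 3 mice with the highest *Cpt2*. The 3 *Cd3* genes with a probe, of 4 listed T cell markers, had a Pearson r with *Cpt2* of -0.89 for *Cd3d*, -0.77 for *Cd3e* and -0.76 for *Cd3g* (exact permutation p = 0.00158, 0.0140 and 0.0172, adjusted p = 0.197, 0.220 and 0.228, Spearman rho = -0.75, -0.65 and -0.88). Without mouse 4 of feed K and mouse 8 of feed B the r values were -0.74, -0.74 and -0.87 (exact permutation p = 0.0415, 0.0619 and 0.0113). The log2 of their summed signal was 7.88 in feed B mouse 8, 8.80 in feed G mouse 11 and 9.37 in feed K mouse 4. By feed it was 7.88 to 10.39 on feed B, 9.37 to 11.82 on feed K and 8.80 to 10.96 on feed G. None of the 3 was detected on all arrays. The adipocyte marker *Fabp4* had r = -0.84 with *Cpt2* (exact permutation p = 0.00573, adjusted p = 0.197, Spearman rho = -0.78) and -0.47 without the same 2 mice, whereas *Plin1* (listed as *Plin*), of the same list, had 0.11. For the 4 adipocyte markers with a probe, of 7 listed, the log2 of the summed signal was 10.14 to 11.75 on feed B. It was 10.15 to 11.61 on feed K and 10.89 to 11.02 on feed G. The hormone gene *Gcg*, listed as a distal marker, had r = -0.75 with *Cpt2* and -0.81 with *Acadvl* (exact permutation p = 0.0215 and 0.0100, adjusted p = 0.242 and 0.200), and *Pyy* had -0.62 and -0.77 (p = 0.0784 and 0.0154). Without the same 2 mice the r values of *Gcg* were -0.53 and -0.69 (exact permutation p = 0.219 and 0.0885). Of the same list, *Fabp6* had r = -0.20 with *Cpt2* and -0.38 with *Acadvl*, and *Slc10a2* had -0.03 and -0.17. Of the 40 markers set against *Cpt2*, these 5 (the *Cd3* genes, *Fabp4* and *Gcg*) had an unadjusted p below 0.05 and 0 passed over all genes (exact permutation). Among all 9555 genes 1453 had an unadjusted p below 0.05 with *Cpt2*, a share no smaller than that of the markers. The part of cell makeup in the pattern was not tested.

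*Hadha* and *Hadhb* were not shown to move together. Their Pearson r was 0.62 (exact permutation p = 0.0783, adjusted p = 0.879, Spearman rho = 0.60, p = 0.0968), 0.47 with the feed means subtracted, and 0.63 without feed B mouse 7 and feed G mouse 8 (exact permutation p = 0.130). The result differed between the probes of *Hadhb*, with r = 0.79 for probe 306111 (exact permutation p = 0.00965) and 0.07 for probe 753383 (p = 0.856), which is also the brightest probe. The use of probe 306111 alone was chosen after the data were seen. It also depended on the scaling, with r = 0.88 for median scaling (exact permutation p = 0.00227), 0.79 for the series table (p = 0.0137) and 0.78 with spots below a signal-to-noise ratio of 1 left out (p = 0.0139), and on feed B mouse 10, without which it was 0.77 (p = 0.0253).

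**Figure D4:**
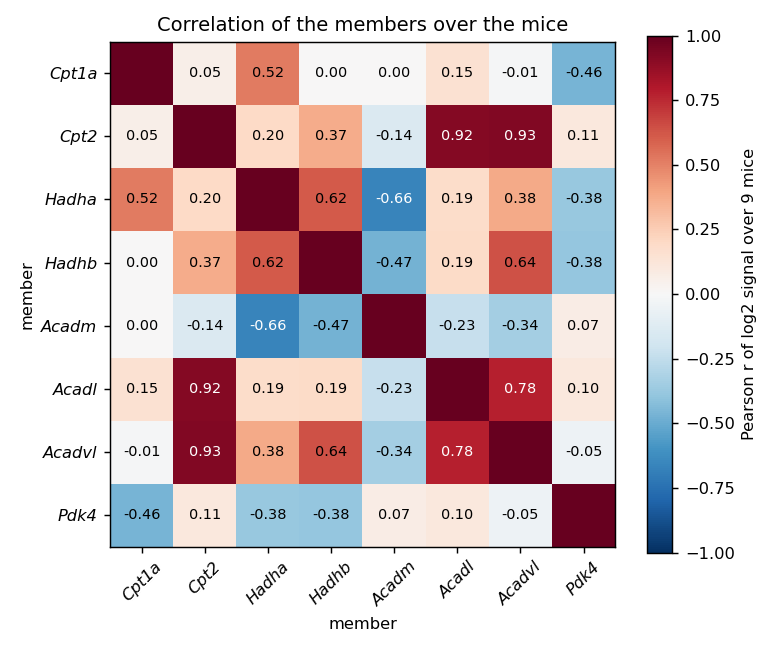
Pearson r of log2 signal over 9 mice for each pair of members (both axes), from blue (-1) to red (1). *Cpt2* with *Acadvl* (0.93) and with *Acadl* (0.92) are the highest values, *Hadha* with *Hadhb* has 0.62, and *Pdk4* and *Acadm* have no r above 0.11 with another member.

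The genes with the most similar pattern to *Hadhb* over the 9 mice, among those detected on all arrays, were *Pim1* (r = 0.93), *Galnt1* (0.90) and *A930008A22Rik* (0.90). None passed after adjustment (exact permutation, adjusted p = 0.879 for each), nor did any of the 9555 genes (0%, with 501 at an unadjusted p below 0.05). For *Cpt1a* they were *Dnm2* (r = 0.96, exact permutation, adjusted p = 0.513), *Nfe2l1* (0.91) and *2310065K24Rik* (0.89, adjusted p = 0.997 for both), and 0% of genes passed, with 351 at an unadjusted p below 0.05. Of the members, *Hadha* alone had genes that passed, 7 of 9555 (0.0733%, exact permutation, smallest adjusted p = 0.0263), *Hadhb* not among them. The r of *Nfe2l1* fell to 0.57 without mouse 8 of feed G and mouse 8 of feed B.

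The profile of *Cpt1a* resembled those of 3 of the 40 markers (unadjusted p below 0.05, 0 after adjustment, exact permutation), compared with 351 of 9555 genes. Its r with *Fabp6*, the ileal bile acid binding protein, was 0.73 (exact permutation p = 0.0265, adjusted p = 0.997, Spearman rho = 0.75, p = 0.0255), and 0.70 without mouse 8 of feed G and mouse 8 of feed B (exact permutation p = 0.0673). *Fabp6* and *Cpt1a* were both highest in feed G mouse 11, at 19.51 and 10.06, and *Fabp6* was not detected in feed B mouse 8. The other distal markers with a value on all arrays had r = 0.48 (*Slc10a2*, exact permutation p = 0.184), 0.09 (*Pyy*, p = 0.821) and -0.02 (*Gcg*, p = 0.967) with *Cpt1a*. The enterocyte factor *Cdx2* had r = 0.81 (exact permutation p = 0.00733, 0.40 without the 2 mice), the adipocyte marker *Plin1* 0.80 (p = 0.00835) and the proximal marker *Gata4* 0.59 (p = 0.0990), all with an adjusted p of 0.997. Other markers of these lists did not share this. *Fabp1* and *Apoa4*, listed as enterocyte and proximal markers, had r = -0.45 and -0.39, and the proximal marker *Cyp2b10* had -0.56. The enterocyte markers *Fabp2* and *Apoa1* had 0.08 and 0.29, and the adipocyte markers *Fabp4* and *Lep* 0.22 and -0.02. The summed signals of the 5 distal markers, all with a probe, are those given above. Of these, *Gcg* and *Pyy* were detected on all arrays and *Fgf15* on 1, and the part of the sampled position in the spread of *Cpt1a* was not tested.

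The other genes of fatty acid oxidation were taken from 6 lists of 76 genes in all, of which 60 had a probe, 53 were tested for the feed and 41 were detected on all arrays. The range over the mice was at most 2-fold for 27 of the 41, compared with 57.9% of all genes, and the median SD was 0.29, as over all genes. An SD below that of *Hadhb* was found for 4 of the 41, compared with 9.85% of all genes. These were *Bdh1*, *Eci2*, *Etfb* and *Eci1*, named after their values were seen. The paired test called 9 of the 41 more variable than *Hadhb* (exact permutation, adjusted), compared with 22.3% of all genes. In the feed test 0 of 53 passed (limma), and 3 had an unadjusted p below 0.05, compared with 5.37% of all genes.

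In the list of mitochondrial beta oxidation the signal of 13 of 16 genes detected on all arrays stayed within 2-fold, compared with 57.9% of all genes, and the median SD was 0.26. A difference between the lists was not tested. The narrowest gene of the list was *Eci2* (listed as *Peci*), an enoyl-CoA isomerase, with 1.23-fold, and its widest *Acaa2*, the thiolase for medium chains, with 2.46-fold. *Etfb* (1.32-fold), a subunit of the flavoprotein that takes electrons from the dehydrogenases, was narrow as well. Its partner enzyme *Etfdh* was detected on 0 arrays, which does not show that it is absent from the jejunum. The count of narrow genes in this list includes some that act after or beside the main cycle, such as *Mut* and *Pccb* of propionate breakdown (1.41-fold and 1.57-fold).

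In the list of the carnitine shuttle and activation the range was at most 2-fold, as for 57.9% of all genes, for 2 of 5 genes detected on all arrays, from 1.68-fold for *Crat*, carnitine acetyltransferase, to 4.44-fold for *Acsl1*, an acyl-CoA synthetase that was low in feed B mouse 7. In the peroxisomal list it was 3 of 6, and the narrowest was *Scp2*, a thiolase and sterol carrier, with 1.496-fold. In the list of pyruvate dehydrogenase and malonyl-CoA it was 4 of 6, from 1.69-fold for *Pdk3* to 3.41-fold for *Dlat*. In the PPAR list it was 3 of 5, from 1.504-fold for *Ppargc1b* to 3.45-fold for *Plin2* (listed as *Adfp*). *Cyp4a14*, a PPAR alpha target, was detected on 0 arrays, which does not show that it is absent from the jejunum.

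**Figure D5:**
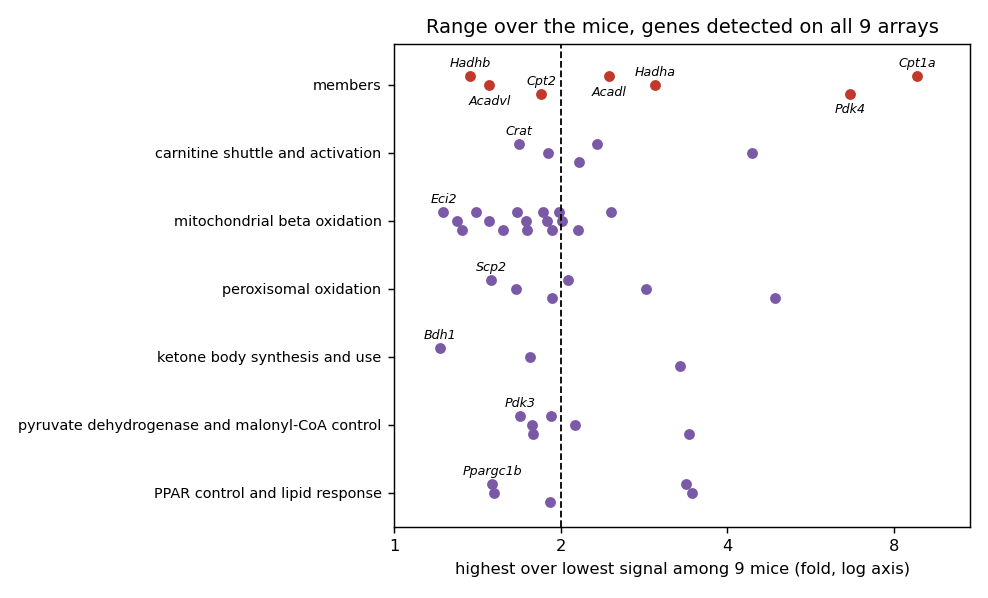
Highest over lowest signal among 9 mice (horizontal, log axis) for the members (red) and for the genes of 6 pathway lists (violet) detected on all arrays, with a dashed line at 2-fold. The narrowest gene of each list is named. *Hadhb* has 1.37-fold, and *Bdh1* and *Eci2* are narrower at 1.21-fold and 1.23-fold.

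Ketone body genes differed in detection. *Bdh1* (listed as *Bdh*), which interconverts the main ketone bodies, had the narrowest range of all 6 lists with 1.21-fold, and *Oxct1*, which uses them, the widest of its list with 3.28-fold. *Acat1* was detected on 0 arrays, which does not show that it is absent from the jejunum.

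Among the list genes with an unadjusted p below 0.05 was *Pparg*. *Pparg*, a PPAR of fat cells and the distal gut, had 7.18, 7.87 and 8.49 on feed B, just below the lowest mouse of the other feeds at 8.50 (limma, adjusted p = 0.848), and was detected on 8 arrays. A feed apart from both others was found for 5 of 52 list genes, *Slc22a5* and *Crot* among them (named after their values were seen), compared with 8.11% of all genes. The clock gene sum given above was lowest on feed B, though genes of that list went both ways. The part of the clock genes in this difference was not tested.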

How the data were processed

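For each array the authors deposited a table of spots with the signal intensity, corrected for background and spatially normalized, its standard deviation, and the signal-to-noise ratio as a score. They also deposited a table of the series, whose intensity values equal the assay-normalized signal of the arrays, in linear units. What its normalization divides by is not given in the sources used here. The submitters' processing notes name RMA without a role. Failed spots (flag over 5000) were removed. Quantile normalization used the arithmetic mean over the 9 arrays, and log2 values of a gene's probes were averaged. Feeds were compared with limma 3.58.1 in R 4.3.3 over genes detected (signal-to-noise ratio of at least 3) on at least 3 arrays, with Benjamini-Hochberg adjustment at 0.05. Equality of variance was tested as the correlation of sum and difference over the mice. This and all correlations had two-sided exact permutation p-values, computed in Python 3.11.15 with numpy 2.4.6 and pandas 2.3.3. The procedures were tested on simulated data.

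The number of arrays limits the precision. The members and the pathway and marker lists were chosen with earlier results of these data known. Genes named are the members, list genes that were narrowest or widest in their list, had an unadjusted p below 0.05 or were detected on no array, and the 3 genes most correlated with *Hadhb* and *Cpt1a*. Some list genes that meet this rule are not reported here. Upstream sequence was taken from RefSeq (GRCm38.p6). Alternatives tried were the brightest probe, median scaling, the series table, failed spots kept, noise spots left out, a floor at percentile 5, feed means subtracted, CV% of values studentized per array, other filters and tests, and each array left out. Each *Hadhb* probe alone was added after seeing the data. RNA was isolated with Trizol and RNeasy per the labels, and with Qiazol and miRNeasy per the methods.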

Additional observations from a re-analysis of the deposited data

Results flagged for a closer look

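Over the 9 mice 49 genes were examined, the members and the list genes detected on all arrays, for a mouse far from all others. The distance of the most extreme mouse from the next, as a share of the range of all mice, was set against Dixon's 95% limit of 0.493, which chance passes in about 1 of 20 groups. No member passed it, and 2 list genes did, compared with 2.45 expected by chance. *Acsl1*, an acyl-CoA synthetase, was low in feed B mouse 7 with a log2 signal of 9.29, compared with 10.66 in the next mouse and 11.44 in the highest (ratio 0.639). *Hadh2*, a mitochondrial hydroxyacyl-CoA dehydrogenase, was low in feed K mouse 4 with 11.22, compared with 11.71 in the next and 12.01 in the highest (ratio 0.613).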

How the results depend on the processing

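No paired analysis was possible because any 2 feeds share at most 1 mouse number. The files give no scan batch, so none was fitted. The SD of *Hadhb*, 0.16, was 0.39 with median scaling, 0.34 with the series table, 0.23 with probe 306111 alone, and 0.13 to 0.17 with a mouse left out. The 1310 genes more variable than *Hadhb* became 0, 11 and 95 under these settings, 652 with the brightest probe, 800 with probe 753383 alone, and 333 (without feed G mouse 11) to 1872 (without feed K mouse 1) with a mouse left out, which also lowers the number of pairings. The count was 601, 799 and 871 without mice 7, 8 and 10 of feed B, 583 and 470 without mice 3 and 4 of feed K, and 442 without feed G mouse 8. The 3 more variable members became 0, 0 and 1 under the same settings, and 1 to 4 with a mouse left out. The count of members within 2-fold stayed between 2 and 4.

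The correlation of *Hadha* with *Hadhb*, 0.62, passed 0.05 with median scaling (0.88), the series table (0.79), noise spots left out (0.78), probe 306111 alone (0.79) and without feed B mouse 10 (0.77). It was 0.07 with the brightest probe and 0.49 to 0.77 with a mouse left out. In limma's F test over the feeds 0 genes passed, but 3 passed with noise spots left out, 3 without feed B mouse 10 and 1 over genes detected on all arrays, none of them a member. By pairs of feeds, noise spots left out gave 3 genes each for feed G minus feed B and feed G minus feed K, genes detected on all arrays gave 1 for feed G minus feed B, and leaving out a mouse gave 0 to 10 between feeds B and K and 0 to 3 between feeds B and G, the highest without feed B mouse 10. The other alternatives kept the correlation and the feed tests on their side of the threshold, and the cause of the changes was not tested. With 3 mice per feed and *Acadm* below the detection limit on 4 arrays, small differences could not be seen.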
